A study of Homo sapiens with 6 samples.

Results

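Metallothioneins are small cysteine-rich proteins, and their genes were read here as a family. Its members were the rows whose platform annotation symbol is that of a metallothionein gene or pseudogene, with the brightest row taken for a symbol. This gave 11 genes of the 14884 named in the table, and each had exactly 1 named row. They were MT2A, MT3, MT4, the MT1 genes MT1B, MT1E, MT1F, MT1G, MT1H, MT1M and MT1X, and MT1L, which the gene table lists as a transcribed pseudogene. Another 8 symbols of the family in that gene table, MT1A among them, had no named row and were not analysed here. A row counts as named only where the annotation gives it a single symbol. Rows given several symbols were not searched, and a gene called measured below is one with a named row.

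The arrays came from Flp-In HEK293 cells, an established line from human embryonic kidney that takes up a construct at 1 prepared site of its genome by Flp recombination (Flp-In T-REx kit). One group stably carried TDNC1 (3 arrays) and the other stably carried a random control RNA (3 arrays), with the stable clones of each kind pooled. Both groups were grown in high glucose medium with hygromycin in place of Zeocin after transfection and with blasticidin throughout. What TDNC1 stands for, and whether an inducer was added, is not in the labels. The 3 arrays of each group are titled as biological replicates with no mention of separate cultures, so a p-value here reflects the spread between these samples only, which may be technical. Values are log2 expression, so a difference of 1 is a doubling or a halving.

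Metallothioneins bind zinc and copper, and cadmium when it is present, through their cysteines, and they buffer the free zinc of the cell. Their transcription is driven by MTF1, a zinc finger factor that senses zinc and binds short metal response elements in their promoters. Glucocorticoids and oxidative stress also raise several of them. MT2A and most MT1 genes are expressed in many tissues, MT3 is known mainly from brain and MT4 from stratified epithelium. The functional genes lie side by side in a cluster on chromosome 16, and their coding sequences are so alike that probes of 1 member can pick up RNA of another. Row values of the MT1 genes are therefore uncertain as measures of single genes.

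The promoters of MT2A and MT1X, which had the lowest differences in TDNC1 of the 11 members, are shown with that of MT1H, which had the largest positive one. The MT1H row was dim, below the lower quartile of all rows in all 6 arrays, and its groups overlapped. MT1F, MT1G, MT1E, MT1M, MT1L and MT3 have no entry in the promoter table used. Each run is the 250 bases before the annotated start, on the + strand of GRCh38.p14 as given by RefSeq. They lie at chr16:56608334-56608583 for MT2A, chr16:56682220-56682469 for MT1X and chr16:56669564-56669813 for MT1H. Capitals mark the core of the metal response element, searched as TGCACNC and TGCGCNC on both strands, so that a match on the other strand reads GNGTGCA or GNGCGCA.
MT2A: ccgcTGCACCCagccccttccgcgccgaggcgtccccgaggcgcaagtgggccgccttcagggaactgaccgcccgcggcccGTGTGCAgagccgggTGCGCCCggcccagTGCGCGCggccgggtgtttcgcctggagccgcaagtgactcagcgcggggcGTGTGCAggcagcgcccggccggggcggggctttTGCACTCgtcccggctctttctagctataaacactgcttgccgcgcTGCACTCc
MT1X: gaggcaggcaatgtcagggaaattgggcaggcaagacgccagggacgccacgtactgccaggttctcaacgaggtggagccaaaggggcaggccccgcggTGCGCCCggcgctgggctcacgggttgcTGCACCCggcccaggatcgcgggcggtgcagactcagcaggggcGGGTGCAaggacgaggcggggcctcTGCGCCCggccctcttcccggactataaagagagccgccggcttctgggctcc
MT1H: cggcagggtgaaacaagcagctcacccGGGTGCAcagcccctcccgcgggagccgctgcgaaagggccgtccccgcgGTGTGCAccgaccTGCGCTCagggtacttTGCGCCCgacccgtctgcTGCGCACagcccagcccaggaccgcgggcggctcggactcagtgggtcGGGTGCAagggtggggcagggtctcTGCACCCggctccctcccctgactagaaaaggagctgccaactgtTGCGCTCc

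The MT2A promoter held 7 cores, 5 on the + strand and 2 on the other. The MT1X promoter held 4 cores and the MT1H promoter 8. A core was found in 24% of the 35116 RefSeq promoters of the same length, and 4 or more in 0.376% of them. The MT4 and MT1B promoters, the other two members with an entry, held 3 cores each. The 3 MT1 genes with an entry shared a pair of positions. MT1X and MT1H both had a core at 47 to 53 bases before the start on the + strand and another at 72 to 78 bases on the other strand. MT1B had the same pair, with the second core at 73 to 79 bases. MT1H and MT2A had a further core at 2 to 8 bases, which MT1X and MT1B lacked. Without gaps, the last 100 bases before the start were 66% identical between MT1H and MT1X, 62% between MT1B and each of these, and 34% between MT2A and MT1X. The letters TATAAA, the core of a TATA box, were present 30 bases before the start in MT1X and MT1B and 29 bases before it in MT2A and MT4, and were not in the MT1H window. They occur in 6.8% of all promoters searched. These matches describe the letters only. They say nothing of binding in these cells.

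The family was selected on its log2 differences between TDNC1 and control, in particular the low values of MT1X and MT2A and the higher ones of MT1H, so these differences are a description and not a test. None of the 11 rows was called in that contrast (0 of 11 at a limma adjusted p under 0.05, where 0.00187% of all 53617 rows were called). At an unadjusted p under 0.05, 1 of 11 passed, where 7.70% of all rows did. The median log2 difference, TDNC1 minus control, was -0.16 over the members and -0.01 over all rows. It was negative for 8 members and positive for 3, where 53.0% of all rows were negative. A difference below -0.5 was found for 2 members, MT2A and MT1X, and for 1.84% of all rows. The groups did not overlap for 1 member, MT2A, and for 13.2% of all rows.

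MT1X, an inducible member of the MT1 group, stood at 7.72, 7.66 and 8.71 in TDNC1 replicates 1, 2 and 3. In the control it stood at 8.78, 8.52 and 8.74. TDNC1 replicates 1 and 2 lay clearly below every other array, whereas TDNC1 replicate 3 lay inside the range of the controls, so the groups overlapped. The mean was 8.03 ± 0.59 (SD, n = 3) for TDNC1 against 8.68 ± 0.14 (SD, n = 3) for the control. Their difference was -0.65 (SE 0.27, 95% interval -1.30 to 0.0015), or 0.639-fold, and the limma adjusted p was 0.646. The spread within TDNC1 is of the size of the difference itself. Against the control mean, TDNC1 replicate 1 was at -0.96, replicate 2 at -1.02 and replicate 3 at 0.03. Of all rows, 0.931%, 0.584% and 58.6% lay as low or lower against their own control mean in these arrays.

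MT2A, the most widely expressed metallothionein gene, had the same order. It stood at 8.12, 8.02 and 8.82 in TDNC1 replicates 1, 2 and 3, and at 8.86, 8.86 and 8.87 in the controls. The 3 controls were nearly equal (SD 0.003), and TDNC1 replicate 3 lay just under them, so that the groups did not overlap. The difference was -0.55 (SE 0.20, 95% interval -1.03 to -0.06), or 0.685-fold, with a limma adjusted p of 0.637. Relative to the control mean, TDNC1 replicates 1 and 2 were at -0.74 and -0.85 and replicate 3 at -0.05.

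**Figure D1:**
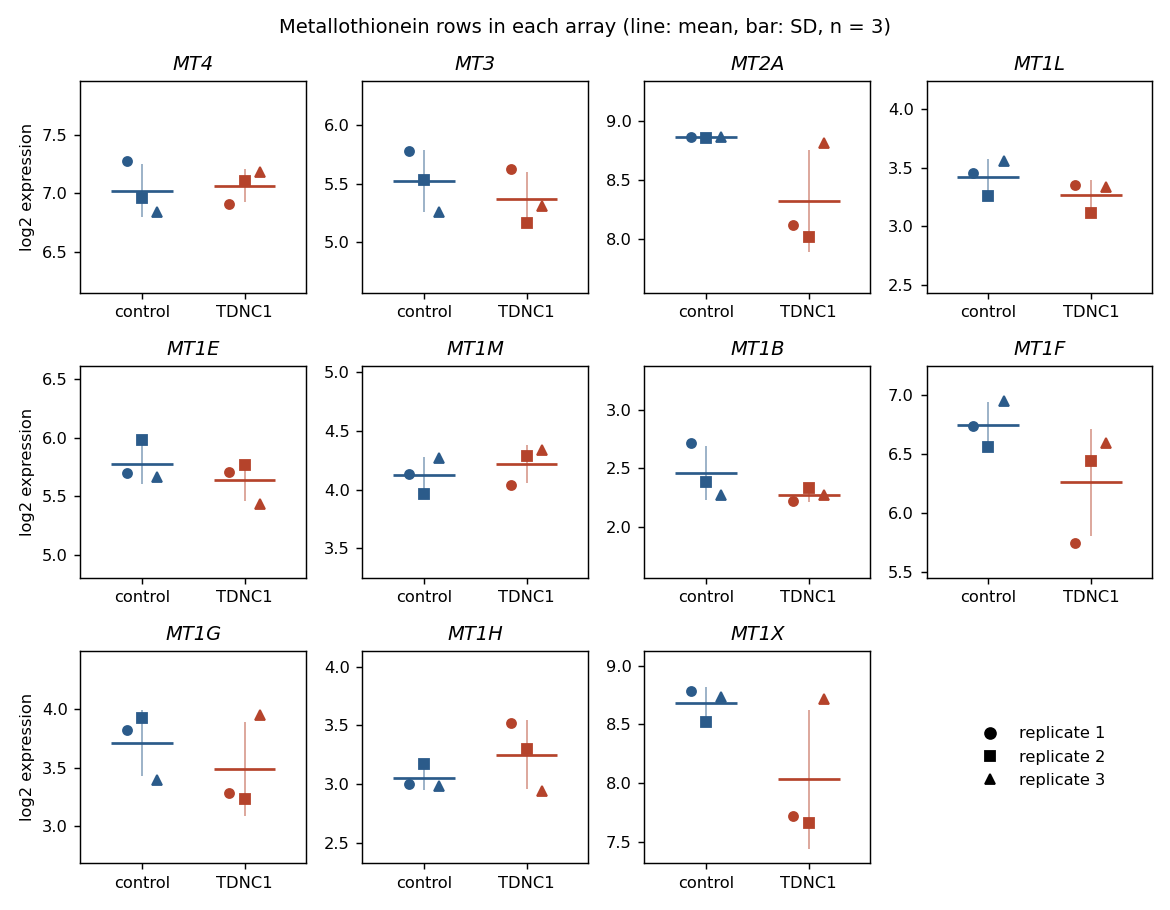
Log2 expression (y axis, each panel spanning the same number of log2 units) of the 11 metallothionein rows in control (blue) and TDNC1 (red) arrays, with the replicate number as the symbol, the mean as a line and the SD as a bar. MT2A and MT1X are low in TDNC1 replicates 1 and 2 and near the controls in replicate 3. MT1F is lowest in TDNC1 replicate 1, with replicate 2 next and close to the controls. The groups overlap for every member except MT2A.

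MT1F, another functional MT1 gene, was also lowest in TDNC1 replicates 1 and 2, but only replicate 1 lay well below the other arrays. It stood at 5.74 in TDNC1 replicate 1, at 6.44 and 6.60 in replicates 2 and 3, and at 6.74, 6.56 and 6.95 in the controls. TDNC1 replicate 3 lay above control replicate 2, so the groups overlapped. The difference was -0.49 (SE 0.23), with a limma adjusted p of 0.657, and it was -0.23 (SE 0.15) without TDNC1 replicate 1. MT1F thus shared the low value of TDNC1 replicate 1 with MT1X and MT2A, and in replicate 2 it lay only 0.31 below the control mean.

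MT1G, which is transcribed from the opposite strand within the same cluster, was dim. It stood at 3.28, 3.23 and 3.95 in TDNC1 and at 3.82, 3.92 and 3.39 in the controls. Its 3 lowest values were those of TDNC1 replicates 1 and 2 and control replicate 3, so the low values did not follow the groups. In 4 of the 6 arrays it lay below the lower quartile of all rows, where array values flatten. The difference was -0.23 (SE 0.23, limma adjusted p = 0.809).

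MT1H was the member with the largest positive difference, at 0.20 (SE 0.16, limma adjusted p = 0.754). It stood at 3.52, 3.30 and 2.94 in TDNC1 and at 3.00, 3.17 and 2.99 in the controls. TDNC1 replicates 1 and 2 were the highest arrays and TDNC1 replicate 3 the lowest. All 6 values lay below the lower quartile of their arrays, so this row can hold little signal of its own.

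MT1E and MT1M, the remaining MT1 genes above the lower quartile in every array, differed little. MT1E had values of 5.71, 5.77 and 5.44 in TDNC1 and 5.70, 5.98 and 5.66 in the controls. Its difference was -0.14 (SE 0.13), and here TDNC1 replicate 3 was the lowest array. MT1M had values of 4.04, 4.28 and 4.34 in TDNC1 and 4.13, 3.96 and 4.27 in the controls, with a difference of 0.10 (SE 0.13). MT1B and the pseudogene MT1L were below the lower quartile in all 6 arrays, with differences of -0.19 (SE 0.13) and -0.16 (SE 0.12). For all 4 rows the 95% interval of the difference included 0 and the groups overlapped.

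MT3, the brain member that inhibits neurite growth, stood at 5.63, 5.17 and 5.31 in TDNC1 and at 5.78, 5.53 and 5.26 in the controls. Its difference was -0.15 (SE 0.17, 95% interval -0.56 to 0.25). MT4, the member of stratified epithelium, stood at 6.91, 7.10 and 7.18 in TDNC1 and at 7.27, 6.96 and 6.84 in the controls, with a difference of 0.04 (SE 0.14, 95% interval -0.29 to 0.37). Neither row was low in TDNC1 replicates 1 and 2 together, in contrast to MT2A, which lies next to MT3 in gene order. The sign for MT4 turned when TDNC1 replicate 3 was left out (-0.02), when control replicate 3 was left out (-0.05) and when both were (-0.11).

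Over the whole table, too, TDNC1 replicate 3 was unlike its group. The median absolute difference over all rows was 0.134 between TDNC1 replicates 1 and 2, 0.188 and 0.177 between these and TDNC1 replicate 3, and 0.136 between TDNC1 replicate 3 and control replicate 3. The distance of TDNC1 replicate 3 was 0.161 to control replicate 1 and 0.156 to control replicate 2. Control replicate 3 was likewise further from control replicates 1 and 2, by 0.162 and 0.160, than these were from each other, by 0.136. LOC646736, a long noncoding RNA and the 1 row called with all arrays, did not follow this. It stood at 9.71, 9.85 and 9.65 in TDNC1 and at 3.56, 3.56 and 3.90 in the controls. The TDNC1 array whose MT1X and MT2A values were like the controls thus had a level of this transcript near that of the other TDNC1 arrays. The part of the array-wide difference in the metallothionein values was not tested.

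Without TDNC1 replicate 3, which leaves 2 arrays against 3, MT1X had a difference of -0.99 (SE 0.11, 95% interval -1.27 to -0.71) and MT2A one of -0.79 (SE 0.09, 95% interval -1.02 to -0.57). Both had a limma adjusted p of 0.0847 and still did not pass. MT1F had -0.66 (SE 0.23), MT1G -0.46 (SE 0.17) and MT1H 0.36 (SE 0.12), with limma adjusted p of 0.290, 0.321 and 0.274. In this fit 0 of 11 members were called, where 0.0429% of all rows were, and 5 had an unadjusted p under 0.05, where 14.5% of all rows did. Of these 5, 4 were lower in TDNC1 (7.62% of all rows) and 1, MT1H, was higher (6.87% of all rows). The array was left out because of its values, so these figures describe the other arrays and add no support.

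**Figure D2:**
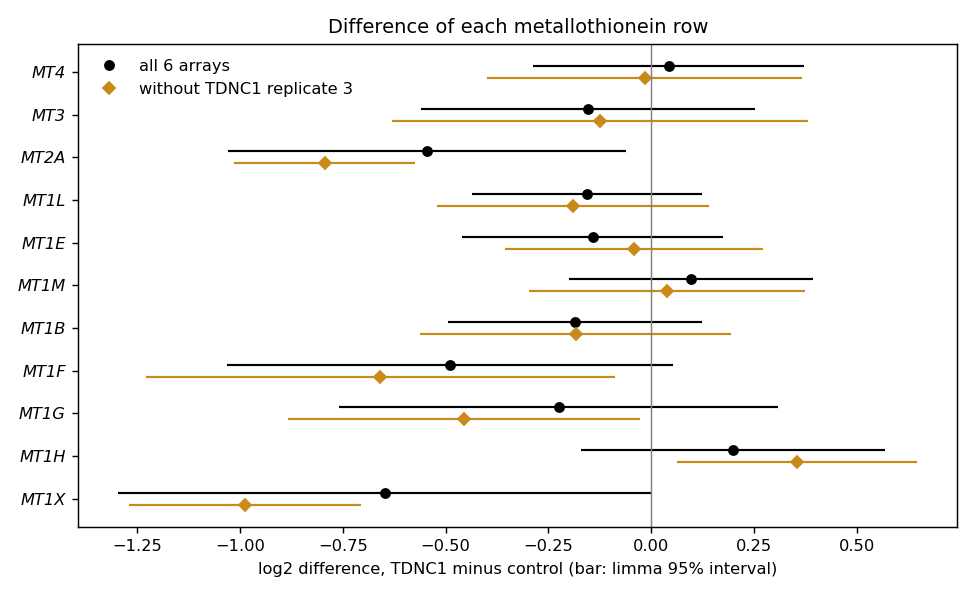
Log2 difference, TDNC1 minus control (x axis), of each metallothionein row with its limma 95% interval, from all 6 arrays (black circles) and without TDNC1 replicate 3 (ochre diamonds). MT1X and MT2A move from -0.65 and -0.55 to -0.99 and -0.79 with narrower intervals, MT1H lies on the positive side, and the intervals of MT4, MT3, MT1L, MT1E, MT1M and MT1B include 0 in both.

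The nearest named genes on either side of the cluster had smaller differences than MT1X and MT2A. Genes found only in rows with several symbols were passed over, so closer genes on the array may be missing. On one side the nearest protein-coding genes with a named row were NUDT21, OGFOD1 and BBS2. NUDT21, an mRNA cleavage factor, had a difference of 0.04 (SE 0.09), and OGFOD1, a ribosomal protein hydroxylase, had -0.02 (SE 0.10). BBS2, a component of the ciliary BBSome, had 0.33 (SE 0.11). BBS2 stood at 8.92, 8.96 and 8.68 in TDNC1 and at 8.44, 8.53 and 8.59 in the controls. Its groups thus did not overlap, as for 13.2% of all rows, in the direction opposite to MT2A. On the other side, the nuclear pore gene NUP93 had -0.10 (SE 0.12), the copine gene CPNE2 -0.08 (SE 0.14) and RSPRY1 -0.02 (SE 0.10). None of the 6 was called (limma adjusted p from 0.631 to 0.968), and 1, BBS2, had an unadjusted p under 0.05, where 7.70% of all rows did. Without TDNC1 replicate 3 their differences ran from -0.21 for NUP93 to 0.42 for BBS2. NUP93 also had its lowest values in TDNC1 replicates 1 and 2, at 9.30 and 9.32, but the next array, control replicate 2, was close at 9.44.

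**Figure D3:**
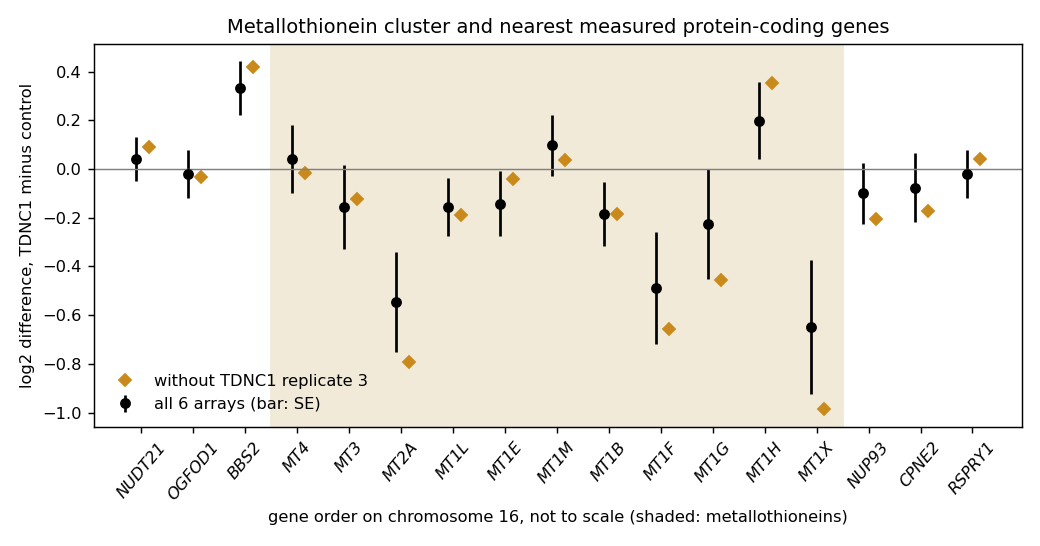
Log2 difference, TDNC1 minus control (y axis), of the metallothionein rows (shaded) and the 3 nearest protein-coding genes with a named row on each side. They are in gene order on chromosome 16 and not to scale, from all 6 arrays (black, bar SE) and without TDNC1 replicate 3 (ochre). MT2A, MT1F and MT1X lie lowest, with MT1L, MT1E, MT1M and MT1B between MT2A and MT1F nearer to 0, and BBS2 lies at 0.33.

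MTF1, the factor that activates metallothionein genes in response to zinc, had low values in the same arrays. It stood at 9.13, 9.003 and 9.59 in TDNC1 and at 9.50, 9.56 and 9.65 in the controls. TDNC1 replicates 1 and 2 were the lowest of the 6 and replicate 3 lay among the controls. The difference was -0.33 (SE 0.16, limma adjusted p = 0.667), and -0.50 (SE 0.10) without TDNC1 replicate 3. MTF2, which shares the name but is a Polycomb accessory protein, had 0.15 (SE 0.11). Zinc exporters (SLC30A) and importers (SLC39A), 24 genes as listed, had no row with a single symbol and were not analysed here. Rows with several symbols were not searched for them.

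Listed genes of copper and iron handling gave no call. Of 11 listed genes of copper handling 6 were measured, with a median difference of 0.04, 5 positive and 0 called. Of all rows 53.0% were negative. The smallest p was that of SCO1, which delivers copper to cytochrome oxidase, at 0.26 (SE 0.10). It was followed by the mitochondrial copper chaperone COX17 at 0.14 (SE 0.09) and by SCO2 at -0.07 (SE 0.10). Of 9 listed genes of iron handling, HAMP, which encodes the iron hormone hepcidin, had -0.25 (SE 0.10) and the transferrin receptor paralogue TFR2 -0.02 (SE 0.11), with no row named for the others. SCO1 and HAMP had an unadjusted p under 0.05, in opposite directions, where 7.70% of all rows passed in either direction. The 5 copper genes with positive differences did not share the low values of MT1X.

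Targets of NRF2, the factor of the oxidative stress response, had negative differences in all 7 of the 15 listed genes that were measured. Of all rows 53.0% were negative, and the list had a median of -0.05 and 0 called. One of them, TALDO1, had an unadjusted p under 0.05, where 7.70% of all rows did. TALDO1 and TKT, enzymes of the pentose phosphate pathway, had -0.26 (SE 0.11) and -0.22 (SE 0.09). For both, the groups did not overlap, as for 13.2% of all rows. TDNC1 replicates 1 and 2 were their lowest arrays, an order whose share of all rows was not counted. Without TDNC1 replicate 3, TALDO1 and TKT were at -0.35 (SE 0.09) and -0.27 (SE 0.09). HMOX1, the heme oxygenase that metals also induce, stood at 6.62, 6.67 and 6.61 in TDNC1 and at 6.60, 6.71 and 6.76 in the controls, with a difference of -0.06 (SE 0.09). HMOX1 thus lay within a narrow range in all 6 arrays, TDNC1 replicates 1 and 2 included.

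Glucocorticoid receptor targets, a class that holds MT2A among its known members, had a median of -0.10 over 7 of 9 listed genes. Of these, 4 were negative, where 53.0% of all rows were, 3 were positive and 0 were called. PER1, a clock gene, had -0.21 (SE 0.11), ZBTB16 0.11 (SE 0.10) and the phosphatase gene DUSP1 -0.37 (SE 0.36). FKBP5, the receptor's co-chaperone, stood at 6.56, 6.48 and 6.50 in TDNC1 and at 6.48, 6.43 and 6.44 in the controls. DUSP1 stood at 8.31, 8.44 and 9.52 in TDNC1 and at 8.84, 8.86 and 9.67 in the controls, highest in replicate 3 of both groups and lowest in TDNC1 replicates 1 and 2. These were the lowest 2 arrays for 4 of the 7 genes, PER1, DUSP1, the kinase gene SGK1 and ERRFI1, and not for FKBP5. The share of all rows with this order was not counted. A like pattern was common, since 32.3% of 257 varying genes had r of at least 0.9 with MT1X, as given below. Without TDNC1 replicate 3 the median was -0.23, with 0 called and 3 at an unadjusted p under 0.05, all negative (7.62% of all rows). DUSP1 was then at -0.75 (SE 0.27).

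Targets of HSF1, the heat shock factor, included several genes with low values in TDNC1 replicates 1 and 2. Of 11 listed genes 6 were measured, with a median of -0.32, 5 negative, where 53.0% of all rows were, and 0 called. Of the 6, 4 had an unadjusted p under 0.05, all negative, where 7.70% of all rows passed in either direction. HSPA1A, an inducible HSP70 gene, stood at 11.47, 11.51 and 12.20 in TDNC1 and at 12.30, 12.36 and 12.30 in the controls, a difference of -0.59 (SE 0.20). HSPA1B, a near-identical copy that probes may not tell apart, had -0.61 (SE 0.19), and the HSP110 gene HSPH1 -0.32 (SE 0.11). The small heat shock protein gene HSPB1 went the other way, at 0.27 (SE 0.13), and the mitochondrial chaperonin gene HSPD1 had -0.02 (SE 0.11). BAG3, an HSP70 co-chaperone gene, had -0.32 (SE 0.12). TDNC1 replicates 1 and 2 were thus the lowest arrays for HSPA1A, HSPA1B, HSPH1 and BAG3, and not for HSPB1 or HSPD1. Here too the share of all rows with this order was not counted, and a like pattern was common among varying genes.

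**Figure D4:**
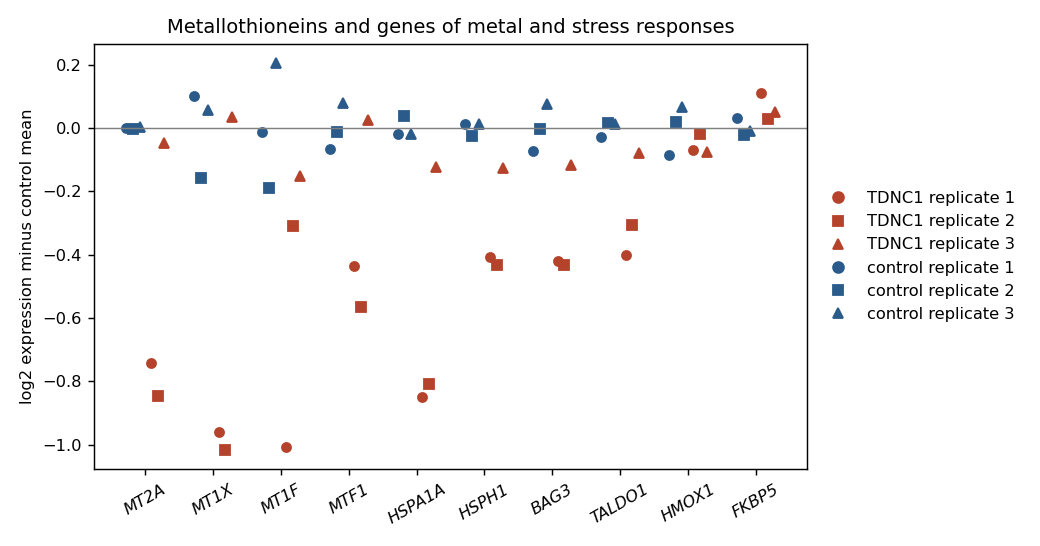
Log2 expression minus the control mean (y axis) of 3 metallothioneins, their activator MTF1 and genes of the heat shock (HSPA1A, HSPH1, BAG3), oxidative stress (TALDO1, HMOX1) and glucocorticoid (FKBP5) lists, with 1 point for each control (blue) and TDNC1 (red) array. TDNC1 replicates 1 and 2 lie lowest for MT2A, MT1X and MTF1, and TDNC1 replicate 3 lies near 0 for them. HMOX1 and FKBP5 stay close to 0 in all arrays. The genes shown do not stand for their lists. Of those not shown, HSPB1 and HSPD1 had differences of 0.27 and -0.02. PER1, DUSP1, SGK1 and ERRFI1 of the glucocorticoid list, also not shown, were lowest in TDNC1 replicates 1 and 2.

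The pattern of MT1X was common among genes that varied. It was compared by Pearson's r over the 6 arrays with 257 other protein-coding genes of mean above 6 and a range of at least 0.8. Of these, 83 (32.3%) had r of at least 0.9 and 51 had r of at most -0.9. The values of MT1X fall into 2 arrays low and 4 arrays high, so r mostly says how a gene separated TDNC1 replicates 1 and 2 from the rest, and it is given as a description. The 5 genes most alike were CTSA, the lysosomal cathepsin A (r = 0.99), SH3BGRL3 (0.99), SURF2 (0.98), the homeobox gene HOXB2 (0.98) and SLC38A12 (0.98). CTSA stood at 7.76, 7.73 and 8.46 in TDNC1 and at 8.56, 8.52 and 8.54 in the controls. The 5 most opposite were the secreted Wnt modulator gene SFRP2 (-0.99), GPR155 (-0.99), LETMD1 (-0.99), HLTF (-0.99) and MIB1, a ubiquitin ligase of Notch signalling (-0.99). SFRP2 stood at 7.30, 7.22 and 6.46 in TDNC1 and at 6.40, 6.55 and 6.48 in the controls. Within the family, r with MT1X was 0.98 for MT2A, 0.78 for MT1F, 0.75 for MT1G and -0.91 for MT1H, and it lay between -0.25 and 0.66 for the other 6.

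The markers fixed for HEK293 cells were above the lower quartile in all 6 arrays for the 5 of 8 that had a named row (VIM, PAX2, LIN28B, HOXB7 and SOX4). Of the fibroblast markers DCN was below it in all arrays, LUM in 5 and THY1 in none. The mean level of the 4 measured hepatocyte markers, a cell type rich in metallothioneins, ran from 5.05 to 5.18 in TDNC1 and from 5.08 to 5.22 in the controls. That of the 3 measured proximal tubule markers ran from 5.66 to 5.83 and from 5.68 to 5.75, that of 5 epithelial markers from 7.79 to 7.87 and from 7.78 to 7.87, and that of 3 blood markers from 6.03 to 6.08 and from 5.95 to 6.12. The ranges of the groups overlapped for each of these lists, and no marker was called. Among single markers, the groups did not overlap for PAX2, a kidney transcription factor, at 0.41 (SE 0.12), nor for the claudin gene CLDN4, at 0.26 (SE 0.11). They overlapped for every other measured marker, where 13.2% of all rows did not overlap. The median difference was -0.04 over the HEK293 list and -0.04 over the epithelial list. LRP2, the endocytic receptor megalin of the proximal tubule, stood at 7.59, 7.40 and 6.95 in TDNC1 and at 7.02, 7.13 and 7.04 in the controls. TDNC1 replicates 1 and 2, the arrays where MT1X was low, were thus its highest, with a difference of 0.43 (SE 0.10) without TDNC1 replicate 3. The rest of that list did not share this. With all arrays CUBN had a difference of -0.02 (SE 0.10) and AQP1 one of -0.11 (SE 0.10), and AQP1 was lowest in TDNC1 replicates 1 and 2. The part of these markers in the metallothionein values was not tested.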

How the data were processed

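The 6 samples were hybridised as total RNA to Affymetrix Human Gene 2.0 ST arrays. The authors deposited log2 values processed by RMA (Affymetrix Power Tools), as the submitters' processing notes list; the log2 scale was judged from the values, and the genome build is not stated in them. RMA gives the probe values of all arrays 1 distribution, so a shift of most transcripts would not show. The row values were close but not equal in distribution, with array medians from 5.16 to 5.22. Dim rows have compressed differences. Precision is limited by the number of arrays.

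Names came from the platform annotation, updated through the GRCh38.p14 gene table. Rows annotated with several symbols were left out of the named rows, of which there were 16098. All 53617 rows were fitted with limma 3.58.1 (R 4.3.3; two-sided, no covariate), with Benjamini-Hochberg adjustment over all rows and a call at an adjusted p under 0.05. The fit was checked on simulated data. Members and lists were chosen with earlier results of these data known. Named were every member, up to 3 genes of smallest p in a list, 3 neighbours on each side, and the 5 genes most and 5 least like MT1X. Chosen after their values were seen were HMOX1, FKBP5, SGK1, ERRFI1, BAG3, HSPB1, HSPD1, PAX2, CLDN4, LRP2, CUBN, AQP1 and the row in the closing section. Alternatives were leaving out each array or both arrays numbered 3, a replicate block, median centring, a filter on dim rows, trend and robust moderation, and array weights.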

Additional observations from a re-analysis of the deposited data

How the results depend on the processing

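No metallothionein was called with limma in any of the 12 refits. Over all rows 1 row was called; leaving out 1 array gave 1 to 23 rows, 23 without TDNC1 replicate 3 and 2 without control replicate 3. The 1 member at an unadjusted p under 0.05 became 2 with array weights, 2 with dim rows filtered out, 2 with trend and robust on and 3 without both arrays numbered 3. With 1 array left out the number was 0 to 5, 5 without TDNC1 replicate 3 and 0 without any one of the other 5 arrays; the cause was not tested beyond the smaller number of arrays. With the replicate block it was 3. Over all rows, same-numbered arrays had deviations from their group means correlated at 0.0359, -0.0013 and 0.0468. The arrays numbered 3 were nonetheless close, with a median absolute difference of 0.136 between TDNC1 replicate 3 and control replicate 3. Whether the numbers pair the arrays is not in the labels and was not tested further. MT1X ran from -0.99 to -0.46 and MT2A from -0.79 to -0.40 over the alternatives, with limma adjusted p from 0.0847 to 0.919 for both. The sign held in every alternative run for 10 members and turned for MT4. MT1G was -0.62 without both arrays numbered 3. The filter removed MT1L, MT1B, MT1G and MT1H. Using every named row of a symbol gave the same values, since each member has 1 named row.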

Other observations

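Row 16819244, which is unnamed here, bears a number between those of the MT1M and MT1B rows and was noticed for its values. Unnamed means that it has no single symbol, and whether the annotation gives it several was not examined. It stood at 8.67, 8.67 and 9.87 in TDNC1 and at 9.95, 9.91 and 10.00 in the controls. The order is that of MT2A, with TDNC1 replicates 1 and 2 low and TDNC1 replicate 3 just under the controls, and r with MT1X was 0.99 over the 6 arrays. Its difference was -0.88 (SE 0.31, limma adjusted p = 0.631), and -1.28 (SE 0.09, limma adjusted p = 0.0303) without TDNC1 replicate 3. In the latter fit 0.0429% of all rows were called. Both the row and the array left out were picked by their values, so that p is a description and adds no support. The other 4 unnamed rows numbered between MT4 and MT1X had differences from -0.18 to 0.13 with all arrays.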
